A study of Mus musculus with 183 samples.

Results

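The 7 long noncoding RNAs (lncRNAs) described here are Malat1, Neat1, Meg3, Rian, Mirg, Kcnq1ot1 and Tug1, taken by name from a table of 53380 genes in mouse embryonic stem cells (mESCs). Every one of the 7 was counted in all libraries and passed the filter on low counts in every fit. The table holds 47 rRNA-depleted RNA-seq libraries of an experiment that followed RNA levels after transcription was blocked with actinomycin D, in lines where tamoxifen (4OHT) removes part of Skiv2l, which encodes the helicase of the cytoplasmic 3′–5′ RNA decay pathway. The question was which RNAs decay more slowly once that helicase, or AVEN, a protein bound to it, is missing. Clone 5F is labelled Rosa26Cre-ERT2/- Skiv2l fl/fl. Clone 7E is labelled Aven-/- in these libraries, with Skiv2l3xFLAG-Avi/3xFLAG-Avi and Rosa26Cre-ERT2/BirA-V6, although their titles and the labels of other 7E samples also give it a conditional Skiv2l allele. Both clones carry the 4OHT-activated Cre, were grown in serum and LIF on gelatin, and were sampled without 4OHT (day 0) and after 4 days in 0.1 µM 4OHT (day 4). At each day, a mock sample received DMSO only and the others received actinomycin D for 120, 240 or 360 min, which gives 16 groups of 3 libraries, with 2 in clone 5F at day 0 and 120 min. Each genotype is 1 clone and the study calls the replicates technical, so genotype, protein tag and clone cannot be told apart. The p-values measure only the spread among these libraries, which for slopes includes their departure from a straight line over time.

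Most lncRNAs of this group stay in the nucleus rather than in the cytoplasm. Malat1 is concentrated in nuclear speckles, the bodies that store splicing factors, and Neat1 is the scaffold of paraspeckles, where it is bound by SFPQ, NONO and other RNA-binding proteins. Meg3 (also called Gtl2), Rian and Mirg are transcribed in the same direction from the maternal copy of the imprinted Dlk1-Dio3 region, and Rian and Mirg are the hosts of clustered snoRNAs and microRNAs. Kcnq1ot1 is transcribed from the paternal copy of the Kcnq1 region, antisense to Kcnq1, and is known for the silencing of neighbouring genes in cis. Tug1 is a widely expressed spliced lncRNA. Actinomycin D blocks transcription, so that the fall of an RNA over time measures how fast it is lost.

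In GRCm38 (Gencode vM21), Malat1 is a single block of 6983 nt on the minus strand (chr19:5795690-5802672), and Neat1 lies near it on the same strand as 1 block of 20771 nt (chr19:5824708-5845478). Meg3 (chr12:109541001-109571726), Rian (chr12:109603940-109661716) and Mirg (chr12:109729764-109749460) follow each other on the plus strand of chromosome 12. Their exons cover 18089 nt, 18234 nt and 7292 nt. Nested within them are 2 microRNA genes in Meg3, 13 snoRNA and 4 microRNA genes in Rian, and 15 microRNA genes in Mirg. Kcnq1ot1 (chr7:143203458-143296549, minus strand) is 1 block of 93092 nt inside Kcnq1, which is transcribed from the plus strand. Kcnq1 itself had a mean of 0.142 CPM in the mock libraries (CPM, counts scaled to a common library total of gene counts). Tug1 (chr11:3639785-3649673, minus strand) covers 9734 nt, of which 11.6% is shared with exons of other genes. Gm37376, a plus-strand gene inside the Malat1 block, had a mean of 2.32 CPM in the mock libraries. Whether the counts keep the strand was not tested. How reads in such shared bases were assigned is therefore not known.

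Malat1 and full-length Neat1 are known for a 3′ end that carries no poly(A) tail and folds into a triple helix. The helix forms between U-rich runs and a genomically encoded A-rich tract. These ends are shown because they set the 2 genes apart in sequence from the other 5. Each of the 2 genes has 4 annotated transcripts, which its count pools, so the counts are not limited to RNAs with this end. Among the last 400 nt of both genes, 3 stretches of at least 11 nt were identical and in the same order: TTTCTTTTCCTGA, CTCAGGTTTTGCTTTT and AAAAAGCAAAA. Searched on the transcribed strand with gaps of at most 60 nt, they were held in that order by 2 of 55450 annotated genes, Malat1 and Neat1, from which they were taken. In the RefSeq sequence of GRCm38, the Malat1 element spans chr19:5795982-5796065 and ends 292 nt before the annotated 3′ end of the gene. The Neat1 element spans chr19:5824708-5824797, at the annotated end. Both are on the minus strand and are given 5′ to 3′, with the 3 shared stretches in capitals.
Malat1: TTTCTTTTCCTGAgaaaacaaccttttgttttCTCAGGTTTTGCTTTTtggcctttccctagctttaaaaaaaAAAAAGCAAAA
Neat1: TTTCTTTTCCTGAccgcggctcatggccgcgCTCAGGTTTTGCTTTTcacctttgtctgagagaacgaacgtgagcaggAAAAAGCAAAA

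The libraries held 24440935 to 34114250 gene counts, and the lowest count of a member in any library was 327, for Neat1. Skiv2l was at 147 to 148 CPM in mock clone 5F at day 0 and at 132 to 153 CPM in the libraries labelled day 4, so the gene count was not lower there. That count includes exons outside the deleted part and does not test the deletion. In clone 7E it was at 31.2 to 36.1 CPM and then at 12.3 to 13.8 CPM. Aven was at 32.1 to 36.1 CPM in mock clone 5F and at 1.30 to 2.99 CPM in mock clone 7E. All 8 ES cell markers were above 1 CPM in every mock group, with sums of 2760 to 3430 CPM. The 6 primitive endoderm markers summed to 98.1 to 131 CPM in clone 5F and 13.0 to 14.0 CPM in clone 7E, and the 5 neuroectoderm markers summed to 84.5 to 86.9 CPM at day 0 and 103 to 112 CPM at day 4 in clone 5F, and to 109 to 117 and 162 to 173 CPM in clone 7E. One library in each of the 12 actinomycin D groups stood apart, with 2139 to 6640 CPM of the mitochondrial rRNA gene mt-Rnr2 against 11770 to 30710 CPM in the other 23. The added ERCC spike-in RNAs made up 0.276% to 0.321% of gene counts in 3 mock groups but 0.644% to 0.663% in clone 7E at day 4.

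Malat1 was by far the most abundant of the 7. In mock clone 5F at day 0 it reached 2990, 2830 and 2680 CPM, a mean of 0.283% of all gene counts, and ranked 3 among 9257 annotated lncRNA genes. The 3 libraries lay close together, with a mean of 2830 ± 153 CPM (SD, n = 3). Because these genes differ widely in length, levels are compared per kilobase of exon, pooled over all annotated transcripts. That length is 18234 nt for Rian and 7292 nt for Mirg, whose longest transcripts have 8089 nt and 3822 nt. The order with other lengths was not tested. On that scale Malat1 was at 384 to 428 CPM per kb, and the next 2 were Rian at 21.2 to 22.1 and Tug1 at 15.1 to 16.5 CPM per kb. Mirg followed at 7.15 to 8.12, Meg3 at 3.61 to 4.30, Neat1 at 1.46 to 1.73 and Kcnq1ot1 at 1.11 to 1.43 CPM per kb. No neighbours in this order overlapped in clone 5F. Clone 7E kept the order except for Neat1, which lay above Meg3 at 3.86 to 5.17 CPM per kb against 2.90 to 3.27 at day 0. At day 4 in clone 7E, Neat1 (3.92 to 4.92 CPM per kb) overlapped with Mirg (4.43 to 4.91 CPM per kb). Within the imprinted chromosome 12 group, Rian was above Mirg and Mirg above Meg3 in all 4 mock groups.

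**Figure D1:**
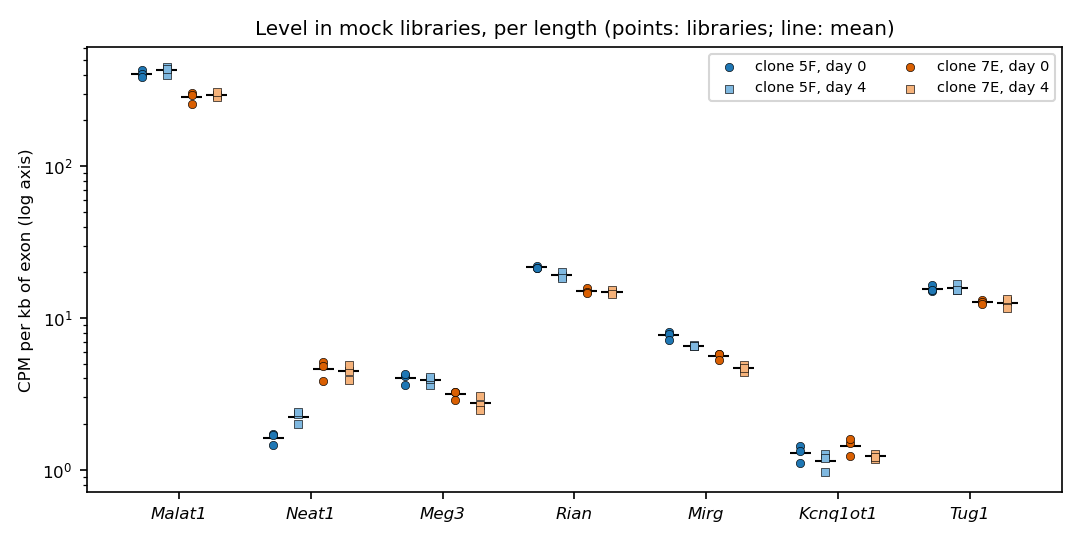
Level of the 7 lncRNAs in the 12 mock libraries, as CPM per kilobase of exon on a log axis, by clone and day of 4OHT, with 1 point per library and a bar at the group mean. Malat1 lies at 258 to 447 CPM per kb in every library, Kcnq1ot1 at 0.967 to 1.60, and Neat1 is the member whose clone 7E points stand clear above those of clone 5F.

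Before 4OHT, the clones differed in all 7 lncRNAs, and the largest difference among them was in Neat1. Neat1 was at 35.9, 35.5 and 30.3 CPM in mock clone 5F and at 107, 101 and 80.1 CPM in mock clone 7E, so that the groups were far apart. Its level was 2.91-fold higher in clone 7E, a log2 difference of 1.54 ± 0.08 (SE; edgeR quasi-likelihood test, adjusted p = 1.34e-13), which is above 99.7% of the 16299 genes tested. The imprinted chromosome 12 RNAs were all lower in clone 7E. Rian was at 402, 388 and 387 CPM in clone 5F and at 287, 272 and 268 CPM in clone 7E, a log2 difference of -0.47 ± 0.04 (adjusted p = 1.12e-09). Mirg differed by -0.41 ± 0.06 and Meg3 by -0.32 ± 0.06 on the log2 scale (adjusted p = 1.99e-06 and 0.000106). Malat1 was at 2110, 2040 and 1810 CPM in clone 7E and so was lower in every library than in clone 5F, by -0.48 ± 0.05 on the log2 scale (adjusted p = 2.94e-08). Tug1 was lower by a smaller amount, -0.26 ± 0.04 (adjusted p = 3.23e-05).

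Kcnq1ot1 was the only other member called higher in clone 7E, at 141, 149 and 115 CPM against 133, 124 and 103 CPM. These libraries overlapped between clones. Its log2 difference of 0.20 ± 0.07 (adjusted p = 0.032) lost the call with DESeq2 (adjusted p = 0.31), with each library scaled to its own spike-ins (log2 0.04) and without replicate 1 or 2. Calls in this comparison were common, with 39.8% of all tested genes past the threshold, 20.4% higher and 19.4% lower in clone 7E, so the count of 7 of 7 members has a high background. The member median was -0.32 and that of all genes was -0.00 on the log2 scale. With spike-in scaling the median of all genes shifted by -0.17, and the other 6 members kept their direction and call.

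Genes on lists chosen around the members were also called between the clones, beside 39.8% of all genes (20.4% higher and 19.4% lower in clone 7E). Of 8 paraspeckle proteins, 4 were higher in clone 7E, among them Sfpq and Hnrnpk, and 1, Nono, was lower. Sfpq, the RNA-binding protein that Neat1 needs for paraspeckle assembly, differed by 0.25 ± 0.04 (adjusted p = 7.7e-06), and Hnrnpk by 0.12 ± 0.04 (adjusted p = 0.029). Of 5 nuclear speckle proteins, 3 were higher (Srrm1, Srrm2, Son), with 0.35 ± 0.05 for Srrm2, a large scaffold protein of speckles (adjusted p = 4.8e-06), and none was called lower. Among 4 tested protein-coding genes of the Dlk1-Dio3 region, Dlk1 (-1.03 ± 0.13) and Dio3 (-1.04 ± 0.23), which are expressed from the paternal copy, were also lower (adjusted p = 8.6e-07 and 0.00082), and Begain and Wdr25 were not called. Of 7 tested genes of the Kcnq1 region, 4 were lower and 0 higher by edgeR at an adjusted p of 0.05, led by Cdkn1c, a cell cycle inhibitor repressed in cis by Kcnq1ot1 (-1.32 ± 0.06, adjusted p = 5.2e-15), and Phlda2 (-0.70 ± 0.07, adjusted p = 6.3e-09). Of 7 genes for imprint control, 5 were lower and 0 were higher, among them the DNA methyltransferase Dnmt3b (-1.31 ± 0.04, adjusted p = 2.0e-17) and Trim28 (-0.27 ± 0.04, adjusted p = 4.3e-06). Median log2 differences were 0.10 for paraspeckle, 0.11 for speckle, -0.50 for Dlk1-Dio3, -0.15 for Kcnq1 region and -0.27 for imprint control genes, beside -0.00 over all genes.

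The nuclear RNA decay genes, which include the exosome subunits and MTR4 (Mtrex), were mostly not called, with 3 of 11 higher (Exosc10, Exosc3, Tent4b), 0 lower and a median of 0.09. Of 4 other imprinted lncRNAs, H19 (-1.64 ± 0.25) and Snhg14 (-0.37 ± 0.06) were lower and Peg13 (3.91 ± 0.29) was higher in clone 7E. Peg13 was at 0.0718 to 0.352 CPM in clone 5F and 2.86 to 3.21 CPM in clone 7E. It did not pass the filter on low counts in clone 5F alone. It entered the comparison only through clone 7E, where it was high, so its call carries no weight. Of 10 other lncRNAs tested, 3 were higher and 3 lower, with Lncenc1, an ES cell lncRNA, at -1.32 ± 0.04 (adjusted p = 2.0e-17). All 6 primitive endoderm markers were lower in clone 7E, with a median of -3.36, and 4 of 5 tested fibroblast markers were lower and 0 higher, with a median of -0.89. For ES cells 4 of 8 markers were higher and 2 lower, for neuroectoderm 2 of 3 were higher and 1 lower, and for mesoderm 1 of 3 was higher and 0 were lower. The part of a differing cell makeup in the member differences was not tested, and in bulk libraries fewer cells of a type and less RNA per cell cannot be told apart.

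**Figure D2:**
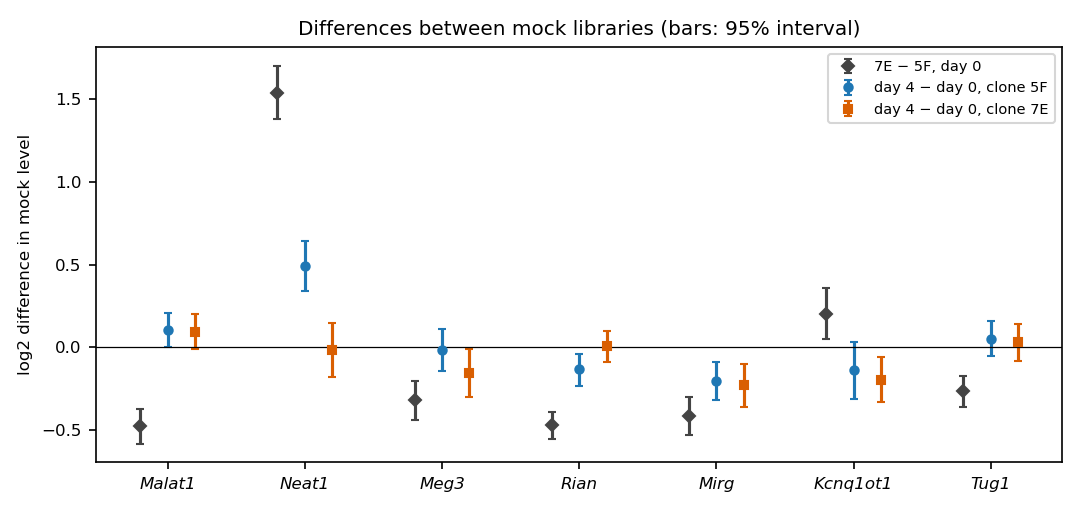
Log2 difference of mock level for each lncRNA in 3 comparisons: clone 7E against clone 5F at day 0, and day 4 against day 0 in each clone (marker shape and colour), with points at the edgeR estimate and bars at its 95% interval. Neat1 stands out at 1.54 in the clone comparison, and the day differences lie between -0.23 and 0.49.

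After 4 days of 4OHT, 3 of 7 members passed the test in clone 5F, Neat1 among them, and 2 of 7 in clone 7E. In the clone 5F libraries labelled day 4, Neat1 reached 41.6, 48.9 and 49.7 CPM, each above all 3 libraries of day 0. It was 1.41-fold higher, a log2 change of 0.49 ± 0.07 (edgeR, adjusted p = 3.7e-05). In the same clone Mirg fell from 59.2, 57.2 and 52.1 CPM to 48.3, 47.4 and 47.4 CPM, by 0.20 on the log2 scale (SE 0.06, adjusted p = 0.00971), with no overlap between days, and lost the call without replicate 1. Rian, at 346, 368 and 335 CPM at day 4, fell by 0.13 (SE 0.05, adjusted p = 0.0362). That call was lost without replicate 1 or 3. Hence 3 of 7 members passed in clone 5F, where 24.6% of all genes did, 12.6% higher and 11.9% lower. Malat1 (0.11 ± 0.05), Tug1 (0.05 ± 0.05), Meg3 (-0.01 ± 0.06) and Kcnq1ot1 (-0.14 ± 0.08) did not pass, with adjusted p-values of 0.135, 0.48, 0.892 and 0.241.

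In clone 7E, 2 of 7 members passed, where 40.1% of all genes did, 20.8% higher and 19.3% lower. Mirg fell again, from 42.6, 42.3 and 38.5 CPM to 35.8, 32.3 and 34.4 CPM, by 0.23 on the log2 scale (SE 0.06, edgeR adjusted p = 0.00532), and the days did not overlap. Kcnq1ot1 fell by 0.20 (SE 0.07, adjusted p = 0.0212), to 120, 110 and 114 CPM, and the days overlapped. Both calls were lost without replicate 1 or without replicate 2. Neat1, at 93.7, 81.5 and 102 CPM at day 4, overlapped fully with day 0, and its log2 difference was -0.02 ± 0.08 (adjusted p = 0.893). That value rests on replicate 3, without which Neat1 was called lower at day 4 (-0.21 ± 0.06, adjusted p = 0.0048), as was Meg3 (-0.30 ± 0.07, adjusted p = 0.00025). The remaining 4 did not pass either, with log2 differences of 0.09 for Malat1, 0.03 for Tug1, 0.01 for Rian and -0.15 for Meg3. These log2 differences are relative to the other genes, through median-of-ratios size factors. When each library was instead scaled to its own spike-ins, the median of all genes in clone 7E shifted by -1.10 on the log2 scale at day 4, and all 7 members were called lower, Malat1 by -1.0 and Rian by -1.09, so the direction for Malat1, Rian and Tug1 depends on the scaling. These spike-in values follow the higher ERCC share of that group, in which less RNA per well and a larger amount of spike-in cannot be told apart.

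Markers of cell types were also called between the days, beside 24.6% of all genes in clone 5F and 40.1% in clone 7E. In clone 7E, 7 of 8 ES cell markers were called lower and 0 higher, and their sums went from 3310 to 3430 CPM at day 0 to 2760 to 2850 CPM at day 4. In clone 5F, 3 were lower and 2 higher, with sums of 3260 to 3310 and then 2990 to 3110 CPM. Primitive endoderm markers were lower for 3 of 6 and higher for 0 in clone 5F, and higher for 1 and lower for 0 in clone 7E. Of 5 tested fibroblast markers, 2 were higher in clone 5F and 3 in clone 7E, with 0 lower in either, and the 6 on the list summed to at most 12.3 CPM in any mock library. Of 3 tested neuroectoderm markers, 1 was higher and 1 lower in clone 5F, and 1 higher and 2 lower in clone 7E, and of 3 mesoderm markers 1 was lower in clone 5F and 0 were called in clone 7E. The part of these markers in the member differences was not tested.

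The response of Neat1 to 4OHT differed between the clones by -0.51 ± 0.13 on the log2 scale (edgeR interaction test over the 12 mock libraries, adjusted p = 0.0114). It was the only one of 7 members to pass this test, which 11.9% of all genes did. The call was lost without replicate 1 (-0.55, adjusted p = 0.061) and without replicate 2 (-0.39, adjusted p = 0.10). For the other 6, the difference between clones lay between -0.14 for Meg3 and 0.14 for Rian. Around the members, Cdkn1c rose in both clones (0.38 ± 0.05 in clone 5F and 0.90 ± 0.07 in clone 7E), as did Dio3 (0.84 ± 0.17 and 1.67 ± 0.23), and Zfp57, which binds methylated imprint control regions, fell in both. The list counts that follow stand beside 24.6% of all genes called for day 4 in clone 5F and 40.1% in clone 7E. In counts, day 4 brought 1 higher and 0 lower of 4 Dlk1-Dio3 genes in clone 5F and 2 and 0 in clone 7E. For the Kcnq1 region it was 1 and 1 of 7, then 3 and 1. Paraspeckle proteins gave 2 higher and 0 lower of 8 in clone 5F, among them Pspc1, and 2 higher and 4 lower in clone 7E. Speckle proteins gave 3 and 0 of 5, then 1 and 0, nuclear RNA decay genes 1 and 2 of 11, then 1 and 4, and imprint control genes 3 and 2 of 7, then 3 and 3. Of the other imprinted lncRNAs, 0 of 3 passed in clone 5F by edgeR, while in clone 7E H19 was higher and Nespas and Snhg14 lower of 4. Of 10 other lncRNAs, 0 were higher and 3 lower in clone 5F, and 1 higher and 2 lower in clone 7E.

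Over 360 min of actinomycin D, all 7 lncRNAs fell in every clone and day, but at rates that differed widely. Levels here are scaled so that the spike-ins set the loss of total RNA over time, and slopes are in log2 per hour. In clone 5F at day 0, Malat1 had the slowest fall of the members, at -0.10 ± 0.02 per hour, followed by Meg3 at -0.13 ± 0.02 and Rian at -0.21 ± 0.01. Tug1 at -0.36 ± 0.03, Neat1 at -0.40 ± 0.06 and Mirg at -0.47 ± 0.04 were faster, and Kcnq1ot1 was the fastest at -0.59 ± 0.05. All passed the edgeR test, with adjusted p-values from 1.69e-13 for Rian to 1.19e-05 for Malat1, as 89.2% of all tested genes did in the downward direction. The background in the other groups was 89.7% in clone 5F at day 4, 91.4% in clone 7E at day 0 and 93.4% in clone 7E at day 4, so that a fall by itself sets no member apart.

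The median slope of all 17901 genes in clone 5F at day 0 was -0.22 per hour and that of 1179 tested lncRNA genes -0.33. Malat1 decayed more slowly than 85.5% of all genes and 90.3% of lncRNA genes, and Meg3 more slowly than 77.9% and 86.9%. Rian lay near the middle of all genes, at 53.9%, and above most lncRNA genes, at 73.3%. Tug1 (26.7%), Neat1 (22.2%), Mirg (15.7%) and Kcnq1ot1 (8.60%) were on the fast side. A half-life taken from such a line was 583 min for Malat1 (95% interval 429 to 909), 478 min for Meg3, 292 min for Rian, 168 min for Tug1, 151 min for Neat1, 128 min for Mirg and 102 min for Kcnq1ot1 (87.9 to 122), beside a median of 272 min over all genes. Thus the 2 nuclear-body RNAs were far apart in decay, as were the 3 RNAs of the chromosome 12 region. There the half-lives of Meg3 and Mirg differed more than 3-fold, with intervals that did not overlap. Whether the 3′ element shown above bears on the decay of Malat1 or Neat1 was not tested.

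**Figure D3:**
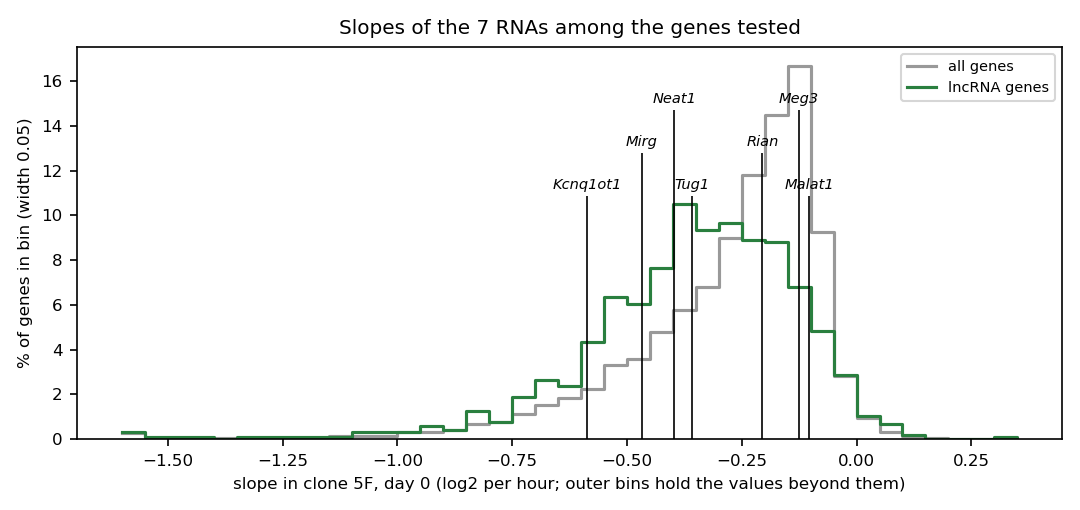
Distribution of decay slopes (log2 per hour, spike-in scaled) over all tested genes and over lncRNA genes in clone 5F at day 0, as the percent of genes per bin, with a line at each member. The members run from Kcnq1ot1 at -0.59 to Malat1 at -0.10, either side of the median of all genes at -0.22.

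The remaining level at 360 min ordered the members in the same way. In clone 5F at day 0, Malat1 was at 64.4%, 71.7% and 66.0% of the mock mean and Meg3 at 58.3%, 58.4% and 64.0%, so that these ranges came close. Rian was at 41.2% to 42.5%, Tug1 at 22.2% to 22.6%, Neat1 at 18.1% to 19.2% and Mirg at 13.6% to 14.5%, with no overlap between neighbours. Kcnq1ot1 was lowest, at 8.43%, 9.83% and 8.35%. In the other 3 clones and days, Malat1 and Meg3 overlapped. Rian stayed apart from both and from Tug1 in all of them. The fast members overlapped in part: Tug1, Neat1 and Mirg in clone 5F at day 4, and Neat1, Kcnq1ot1 and Mirg in clone 7E at day 4.

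**Figure D4:**
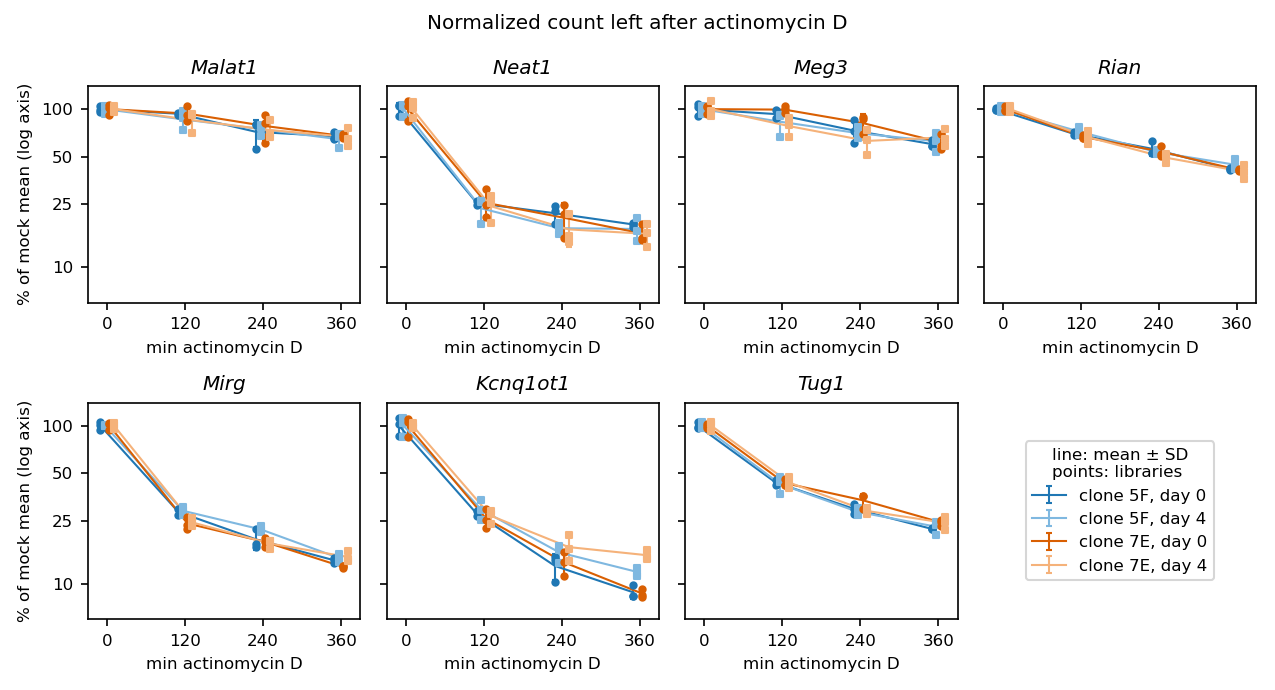
Spike-in scaled level of each lncRNA as percent of its mock mean (log axis) against minutes of actinomycin D, with 1 panel per member, 1 point per library, and lines through the group means with bars of 1 SD for clones 5F and 7E at day 0 and day 4. Neat1 and Mirg drop to under 32% by 120 min and then fall more slowly, whereas Malat1 and Meg3 keep more than 50% to 360 min.

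The courses differed in shape as well as in rate. Neat1 lost most of its RNA in the first 120 min: it was at 26.1% and 24.9% of mock in the 2 libraries of clone 5F at day 0, a log2 change of -1.96 ± 0.08, and then changed by -0.22 ± 0.12 to 240 min and by -0.23 ± 0.12 to 360 min. The same early drop was seen in the other groups, at -2.09, -1.97 and -2.04 for clone 5F at day 4 and clone 7E at day 0 and day 4. Mirg also lost most in the first 120 min of clone 5F at day 0, with -1.81 ± 0.08, and went on falling, by -0.58 ± 0.14 and -0.43 ± 0.12. A single line over 360 min therefore understates the first loss of both, and their half-lives describe the whole interval. The same holds for Kcnq1ot1 and Tug1, whose courses follow. A steeper start was also general in clone 5F at day 0. There the median slope of all genes was -0.40 per hour between mock and 120 min, against -0.22 over all times.

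Kcnq1ot1 fell further in the second interval, by -1.84 ± 0.12, -1.10 ± 0.17 and -0.54 ± 0.18 on the log2 scale in the 3 successive intervals. Tug1 changed by -1.19 ± 0.07 in the first interval and by -0.55 ± 0.08 and -0.42 ± 0.06 in the others. By contrast Rian fell at a nearly even pace, by -0.52 ± 0.04, -0.32 ± 0.09 and -0.42 ± 0.08, all in clone 5F at day 0. By 120 min, Malat1 had changed by -0.10 ± 0.05 and Meg3 by -0.10 ± 0.10 in that group, and by -0.10 ± 0.11 and -0.01 ± 0.07 in clone 7E at day 0. At day 4 these changes were -0.22 ± 0.13 and -0.28 ± 0.16 in clone 5F, and -0.24 ± 0.14 and -0.36 ± 0.15 in clone 7E. Their calls rest largely on the later times, since the slope between mock and 120 min alone did not pass for Malat1 in any clone and day, nor for Meg3 except in clone 7E at day 4. In that group, the slope of Malat1 also lost its call with each library scaled to its own spike-ins (-0.07 per hour), and that of Meg3 without the mock libraries (-0.06), while Meg3 in clone 7E at day 0 lost it without the 360 min libraries (-0.07).

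The direction of the slow members depends on the spike-in scaling, which sets the level to 0.649, 0.531 and 0.438 of the size-scaled counts at 120, 240 and 360 min. As plain shares of gene counts, Malat1 rose from a mean of 2830 CPM in mock to 4340 CPM at 360 min in clone 5F at day 0, Meg3 went from 72.6 to 99.4 CPM, and Rian stayed at 392 and 374 CPM. Without the spike-in factor, slopes were 0.11 to 0.13 per hour for Malat1 and 0.09 to 0.12 for Meg3, upward and past the threshold in all 4 groups, and 0.01 to 0.02 for Rian. Tug1, Neat1, Mirg and Kcnq1ot1 fell under either scaling. The order among members does not depend on this factor, because it is 1 value per time point for all genes.

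The 12 libraries of low mt-Rnr2 share also moved the members. Compared with the other libraries of their group, Malat1 was lower in 12 of 12, by a median of -0.24 on the log2 scale, Kcnq1ot1 in 11 of 12 (-0.26), Neat1 in 10 of 12 (-0.33) and Meg3 in 10 of 12 (-0.22). Rian and Mirg were higher in 11 of 12 (0.14 and 0.13) and Tug1 in 8 of 12 (0.12). Since each group holds 1 such library, they widen the spread within groups. Without them all 7 slopes passed in each clone and day.

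**Figure D5:**
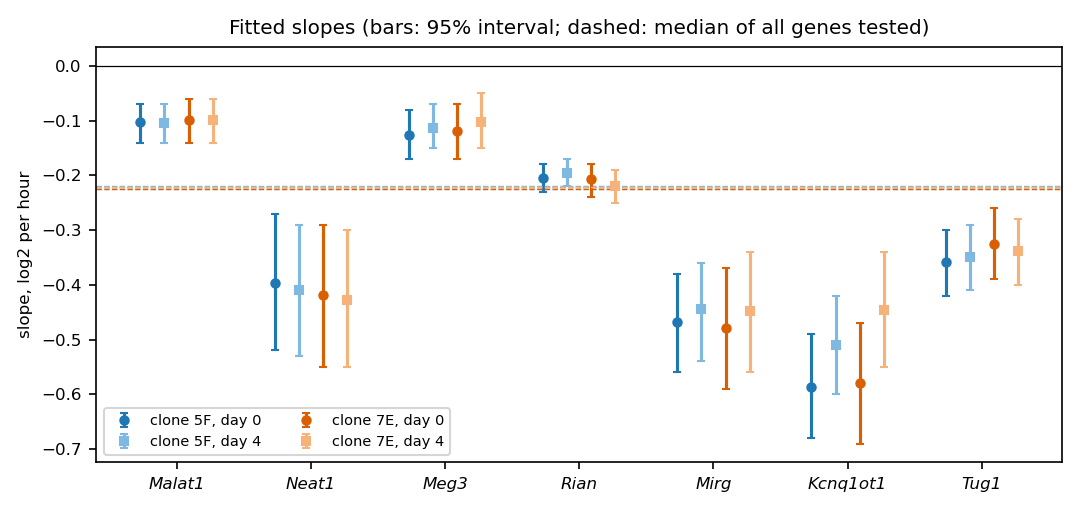
Decay slope of each lncRNA (log2 per hour, edgeR estimate with 95% interval) in clones 5F and 7E at day 0 and day 4, with dashed lines at the median of all genes in each. The 95% intervals of each member's 4 slopes overlap, and the widest spread is that of Kcnq1ot1, from -0.59 to -0.45.

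In straight-line fits over all times, neither 4 days of 4OHT nor the clone brought a difference in slope past the threshold for any member. The early drop of Neat1, Mirg, Kcnq1ot1 and Tug1 departs from a line, which adds to the SE of their slopes. In clone 5F the SE of the change was 0.08 for Neat1, 0.06 for Mirg and Kcnq1ot1 and 0.04 for Tug1. It was 0.02 for Rian and 0.03 for Malat1 and Meg3. A missing call for the fast members is thus weak evidence of equal decay. Size factors were set across clones and days within each time, with the same spike-in factor for all. A change in decay shared by all genes would thus not show in these differences. In clone 5F the change in slope at day 4 was called for 0 of 7 (0 at an unadjusted p under 0.05, 0 by DESeq2), where edgeR called 35 genes, 0.196% of all tested. In clone 7E it was called for 0 of 7 (0 unadjusted, 0 by DESeq2), where edgeR called 156 genes, 0.896%. For Malat1, Neat1, Meg3, Rian and Tug1 the changes lay between -0.01 and 0.02 per hour in both clones, and for Mirg they were 0.02 in clone 5F and 0.03 in clone 7E. The 95% intervals ran from -0.05 to 0.05 per hour for Malat1 and from -0.19 to 0.16 for Neat1 in clone 5F, the last being wide beside a slope of -0.40. Between the clones at day 0, 0 of 7 slopes differed (0 unadjusted, 0 by DESeq2), with 0.0338% of all genes called. Of the difference between clones in the change, 0 of 7 passed (0 unadjusted, 0 by DESeq2), where edgeR called 0.0% of all genes, 477 genes had an unadjusted p under 0.05 and DESeq2 called 4. Values for the members in this last test lay between -0.02 for Rian and 0.06 for Kcnq1ot1.

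Kcnq1ot1 came closest to a change. At 360 min it was at 9.23%, 8.32% and 8.56% of mock in clone 7E at day 0 and at 16.5%, 14.4% and 14.8% at day 4, with no overlap. In clone 5F it was at 8.43%, 9.83% and 8.35% at day 0 and at 11.6%, 12.7% and 11.3% in the libraries labelled day 4, again without overlap. At 120 min, however, the days overlapped in both clones, at 22.6% to 29.7% against 24.0% to 29.0% in clone 7E. Over all times its slope changed by 0.13 ± 0.07 per hour in clone 7E (95% interval -0.01 to 0.28, unadjusted p = 0.066, adjusted p = 0.62) and by 0.08 ± 0.06 in clone 5F (adjusted p = 1.00). An alternative chosen after seeing the data, the slope between mock and 360 min with time as levels, gave 0.13 ± 0.03 with an adjusted p of 0.0087 in clone 7E, where it called 928 genes, and 0.07 ± 0.03 with 0.51 in clone 5F. Over all its alternatives in clone 7E the adjusted p lay between 0.0087 and 1.00.

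Other RNAs of these regions and classes gave the members a frame. In clone 5F at day 0, all 10 other lncRNAs tested fell, with a median of -0.35 per hour and a range that went from Lncenc1 at -0.19 ± 0.01 to Mir17hg, the host of the miR-17-92 cluster, at -0.88 ± 0.11. The other imprinted lncRNAs had a median of -0.27, with Nespas at -0.46 ± 0.04 and Snhg14 at -0.27 ± 0.03 called, and H19, known as a stable imprinted RNA, at -0.04 ± 0.03 and not called. From the Dlk1-Dio3 region, 4 of 4 coding genes fell (median -0.22), and from the Kcnq1 region 6 of 8 (median -0.11), among them Cdkn1c at -0.06 ± 0.01 and Phlda2 at -0.05 ± 0.01. For comparison, Kcnq1ot1 had a slope of -0.59 in the same libraries. Every paraspeckle (8), speckle (5), nuclear RNA decay (11) and imprint control (7) gene fell, with medians of -0.19, -0.25, -0.31 and -0.11, beside -0.22 over all genes. In none of these lists did a gene pass for a change in slope at day 4, in either clone, by edgeR. Over all genes 0.196% passed in clone 5F and 0.896% in clone 7E, so lists this short would rarely hold a call.

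Across the 16 group means, spike-in scaled and on a log2 scale, the courses of the members were alike to different degrees. Pearson's r was lowest between Malat1 and Neat1, at 0.15, and highest between Mirg and Tug1, at 0.98. Malat1 and Meg3 had an r of 0.89, while Rian was at 0.91 with both of them and at 0.94 with Mirg and 0.93 with Tug1. Neat1 was at 0.86 with Kcnq1ot1, 0.75 with Tug1 and 0.69 with Mirg. These 16 points share the loss over time, the size factors and the control libraries, so the values only describe the courses. They also hold the level differences between clones, such as 1.54 for Neat1 and -0.48 for Malat1 on the log2 scale at day 0. The r values therefore do not describe decay alone. The genes most like each member, of 9867 compared, were Zfp600 (0.982) and Lin28a (0.979) for Malat1, Cog8 (0.990) and Enkd1 (0.988) for Neat1, and Eci1 (0.975) for Meg3. For Rian they were Rpe (0.994) and Gm11478 (0.993), for Mirg Fam185a (0.996) and Dffa (0.994), for Kcnq1ot1 Camsap1 (0.997) and Zfp36l2 (0.996), and for Tug1 Eef1e1 and Zbtb11 (both 0.997).

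Base composition varied among the members, and its bearing on their decay was not tested. In the longest transcript of each, GC content was 42.5% in Malat1, 49.2% in Meg3 and 35.8% in Rian, and 37.9% in Tug1, 47.3% in Neat1, 51.9% in Mirg and 40.3% in Kcnq1ot1, beside a median of 46.8% over lncRNA genes. The pentamer ATTTA, part of AU-rich decay elements, occurred 2.84 times per kb in Rian, 1.76 in Kcnq1ot1, 1.72 in Malat1 and 1.49 in Tug1. It occurred 1.01 times per kb in Neat1, 0.619 in Meg3 and not at all in Mirg, beside 1.30 over lncRNA genes pooled.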

How the data were processed

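Reads came from rRNA-depleted total RNA libraries (Ribo-Zero, TruSeq v2). The authors mapped them with STAR to mm10 with ERCC sequences added (submitters' notes and methods; STAR, DESeq2 and mm10 are named there), kept uniquely mapped reads and deposited raw counts per gene, without normalization. Other deposited tables hold the authors' half-lives, pooled binding ratios and comparisons of coding genes, which include no member and were not used here. The remaining replicate of clone 5F at day 0 and 120 min was not analysed here.

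All fits were made with edgeR 4.0.16 under R 4.3.3 (filterByExpr, quasi-likelihood test, Benjamini-Hochberg over all genes tested, threshold 0.05). Mock levels used median-of-ratios size factors. For slopes, size factors were taken among libraries of the same time, and 34 ERCC sequences with a mean above 50 counts gave 1 further factor for each time. Scaled counts were multiplied by it, whereas the methods write of a division. The labels give actinomycin D as 5 µg/µl and the methods in µM. Gene names, positions and lengths are from Gencode vM21, a later release than the authors' on the same build.

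Alternatives were TMM, each library's own ERCC counts, DESeq2 1.42.0, no filter, a replicate block, each replicate left out, and mock or 360 min left out. After seeing the data, 4 more were added: without the 12 libraries of low mt-Rnr2 share, slopes between mock and 120 min or 360 min, and no spike-in factor. A sign change counted as a reversal only where a value was called or reached its standard error. Named were all members, the 2 most correlated genes per member (mean of at least 100 normalized counts, pseudocount 1), and up to 4 most abundant genes per list; some of these genes are not reported here. Members and lists were chosen with earlier results of these data known. The fits were tested on simulated data. No pair of replicates was a copy: chi-square per degree of freedom was 3.20 to 132. Same-numbered mock replicates of the 2 clones at day 0 deviated together (r 0.30, 0.51 and 0.26), which by the rule used here pairs them, whereas those of day 0 and day 4 did not (r of -0.46 to -0.06).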

Additional observations from a re-analysis of the deposited data

Results flagged for a closer look

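Neat1 is listed here because its response to 4OHT in the mock libraries differed between the clones by the interaction test, with a log2 difference of -0.51 between clone 7E and clone 5F. It was higher at day 4 in 3 of 3 libraries of clone 5F than in any library of day 0, and overlapped with day 0 in clone 7E, where its level before 4OHT was already 2.91-fold higher. The difference lost its call without replicate 1 and without replicate 2. The cause was not tested.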

How the results depend on the processing

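In the clone difference at day 0, Neat1 stayed higher and the 5 lower members stayed lower and called under every alternative, and the replicate block, which pairs the clones here, changed no member's call there. For day 4 against day 0 in clone 5F, leaving out a replicate gave 1 to 4 members called. There Tug1 turned to -0.01 with own spike-ins and lay between -0.02 and 0.11 with a replicate left out, and Kcnq1ot1 between -0.26 and 0.05. In clone 7E own spike-ins called 7 members, with Malat1 at -1.0, Rian at -1.09 and Tug1 at -1.07, and leaving out a replicate gave 0 to 4, with Malat1 between -0.00 and 0.14, and Neat1 (-0.21) and Meg3 (-0.30) called only without replicate 3 among these. The clone difference in this response had 7 members called with own spike-ins, with Rian at -0.89, and 0 to 1 with a replicate left out. Without a spike-in factor, slopes in clone 5F at day 0 and day 4, then clone 7E at day 0 and day 4, were 0.11, 0.11, 0.12 and 0.13 for Malat1, 0.09, 0.10, 0.10 and 0.12 for Meg3, and 0.01, 0.02, 0.01 and 0.01 for Rian, since that factor alone carries the overall loss of RNA. The slope between mock and 360 min called 1 member, Kcnq1ot1, for a change in clone 7E.

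Counts over all genes moved more than member counts. With a replicate left out, the 4015 genes called for day 4 in clone 5F went down to 1881, the 6552 in clone 7E to 4285 and the 2055 for the difference between clones to 752, while own spike-ins raised the last 2 to 14976 and 14373. The 35 genes with a change in slope in clone 5F ranged from 2 to 114, the 156 in clone 7E from 26 to 928, the 6 that differed between clones at day 0 from 0 to 332, and the 0 of the difference in change from 0 to 14. Falling or rising slopes numbered 10085 in place of 15978 without the mock libraries in clone 5F at day 0, and 9366 in place of 16275 without the spike-in factor in clone 7E at day 4. The cause was not tested. Replicate numbers of day 0 and day 4 share only a number, and with the replicate block 2972 genes were called in clone 5F, where Rian had an adjusted p of 0.13.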
